A study of Mus musculus with 18 samples.

Results

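The genes of the immunoproteasome and of MHC class I presentation were followed in 18 RNA-seq libraries of the mouse mammary tumour cell lines 168FARN and 67NR. The 10 genes are *Psmb8*, *Psmb9*, *Psmb10*, *Tap1*, *Tap2*, *Tapbp*, *B2m*, *H2-K1*, *H2-D1* and *Nlrc5*. They were taken by symbol from the count tables of both lines, of which that of 168FARN has 24360 rows. They were chosen by the measured level of *Psmb8*, which had been seen far lower in 67NR *Kmt2c* KO cells than in WT cells. That comparison is therefore given as a description, without a test. The study asked what the loss of KMT2C or KMT2D, which methylate histone H3 lysine 4 at enhancers, does to tumour cells that do not metastasize. Each line was grown as WT, *Kmt2c* KO and *Kmt2d* KO cells with 3 replicates of each. The WT libraries are labelled WT in both lines, and the columns of those of 168FARN are named for a control sgRNA. KO cells were sorted pools, and not clones, made by transient transfection with *Cas9* and sgRNAs against the first exon of the gene. By the study's sequencing of the targeted sites, unedited alleles were left in each pool other than 168FARN *Kmt2d* KO, the most in 67NR *Kmt2c* KO. Per the study's methods, replicates of a line were collected with a passage in between, so p-values measure the spread between collections of the same cells.

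The proteasome is a barrel-shaped protease that cuts cytosolic proteins into peptides. Its catalytic subunits are PSMB5, PSMB6 and PSMB7 in most cells. Under interferon they are replaced by the inducible subunits PSMB8, PSMB9 and PSMB10, which changes the peptides made, and the particle is then called the immunoproteasome. TAP1 and TAP2 form the transporter that carries peptides into the endoplasmic reticulum, where tapasin, the product of *Tapbp*, holds empty class I molecules next to it. *H2-K1* and *H2-D1* encode classical class I heavy chains, *B2m* encodes their light chain, and NLRC5 is a transcriptional activator of class I genes. T cells recognise tumour cells through the peptides these molecules display.

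In mm9, the build of the count tables, 7 of the 10 genes lie on chromosome 17 in the major histocompatibility complex. *Psmb9* (34318932 to 34324709, minus strand), *Tap1* (34324498 to 34334170, plus strand), *Psmb8* (34334666 to 34338399, plus strand) and *Tap2* (34340472 to 34353266, plus strand) follow each other without another member between them. *Tapbp* (34052844 to 34066235, plus strand) and *H2-K1* (34132962 to 34137278, minus strand) lie before them and *H2-D1* (35399675 to 35404444, plus strand) after them. *Psmb10* (108459628 to 108462292, minus strand) and *Nlrc5* (96996663 to 97051172, plus strand) are on chromosome 8, and *B2m* (121973422 to 121978819, plus strand) is on chromosome 2. The gene models of *Psmb9* and *Tap1* overlap head to head. Whether reads were counted by strand is not given in the sources used here, so reads in that overlap cannot be told apart.

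The 250 bases before the start of transcription are shown for 7 genes, because *Psmb8*, *Psmb9*, *Psmb10* and *Tapbp* came out lower in 67NR KO cells and *B2m*, *H2-K1* and *H2-D1* did not. They are RefSeq sequences of build GRCm38.p6, 5′ to 3′ on the strand of the gene, and 8 of the 10 genes had one. Capitals mark matches, on either strand, to a pair of GAAA blocks with NN between them and to GAANNGAAA, which resemble elements bound by interferon regulatory factors, to TTCNNNGAA, to CCAAT and to TGACG, which class I promoters are known to carry as their Y and X2 boxes. The segment of *Psmb9* is largely that of *Tap1* read on the other strand, so *Tap1* is not printed. The intervals are chr17:34197945-34198194 on the plus strand for *Psmb8*, chr17:34187331-34187580 on the minus strand for *Psmb9*, chr8:105938393-105938642 on the minus strand for *Psmb10*, chr17:33919228-33919477 on the plus strand for *Tapbp*, chr2:122147437-122147686 on the plus strand for *B2m*, chr17:34000348-34000597 on the minus strand for *H2-K1* and chr17:35262844-35263093 on the plus strand for *H2-D1*.
Psmb8: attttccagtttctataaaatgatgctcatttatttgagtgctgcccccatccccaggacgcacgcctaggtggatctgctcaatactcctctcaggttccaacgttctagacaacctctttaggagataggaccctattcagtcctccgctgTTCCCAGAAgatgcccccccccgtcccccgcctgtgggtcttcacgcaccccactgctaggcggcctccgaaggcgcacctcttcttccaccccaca
Psmb9: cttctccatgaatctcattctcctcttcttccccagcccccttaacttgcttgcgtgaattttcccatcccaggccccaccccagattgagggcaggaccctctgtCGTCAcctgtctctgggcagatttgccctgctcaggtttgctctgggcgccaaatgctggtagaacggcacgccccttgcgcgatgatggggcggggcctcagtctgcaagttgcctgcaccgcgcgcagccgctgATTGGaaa
Psmb10: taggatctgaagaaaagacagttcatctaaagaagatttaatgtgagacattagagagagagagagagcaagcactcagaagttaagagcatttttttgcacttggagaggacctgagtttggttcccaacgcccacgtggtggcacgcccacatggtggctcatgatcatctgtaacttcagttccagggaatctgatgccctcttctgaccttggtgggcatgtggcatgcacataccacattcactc
Tapbp: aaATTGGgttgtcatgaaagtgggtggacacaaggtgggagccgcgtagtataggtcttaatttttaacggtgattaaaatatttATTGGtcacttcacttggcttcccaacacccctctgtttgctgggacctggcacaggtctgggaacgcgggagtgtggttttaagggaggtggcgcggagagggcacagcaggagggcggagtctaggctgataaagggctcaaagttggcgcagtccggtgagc
B2m: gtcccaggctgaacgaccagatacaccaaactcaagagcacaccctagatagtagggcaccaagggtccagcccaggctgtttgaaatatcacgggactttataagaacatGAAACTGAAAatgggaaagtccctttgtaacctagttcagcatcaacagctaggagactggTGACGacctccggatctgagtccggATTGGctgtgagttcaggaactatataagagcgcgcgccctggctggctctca
H2-K1: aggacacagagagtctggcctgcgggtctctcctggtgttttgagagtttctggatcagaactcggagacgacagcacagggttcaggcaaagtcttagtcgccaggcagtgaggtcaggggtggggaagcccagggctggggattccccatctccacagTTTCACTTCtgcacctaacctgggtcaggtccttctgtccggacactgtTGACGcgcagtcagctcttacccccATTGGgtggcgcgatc
H2-D1: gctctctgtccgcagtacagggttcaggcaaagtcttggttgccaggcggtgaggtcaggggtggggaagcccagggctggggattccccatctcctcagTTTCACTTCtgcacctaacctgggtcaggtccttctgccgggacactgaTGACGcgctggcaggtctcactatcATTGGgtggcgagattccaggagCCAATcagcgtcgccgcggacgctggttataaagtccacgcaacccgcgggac

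TGACG was present in the windows of *Psmb9*, *Tap1*, *B2m*, *H2-K1* and *H2-D1*, 5 of 8 genes, and in 17.8% of 32851 promoters of the same length. *Psmb9* and *Tap1* share that match, since their segments overlap. CCAAT was present in those genes and in *Tapbp*, 6 of 8, and in 33.8% of all promoters. The CCAAT match of *Psmb9* is also that of *Tap1*, so this count holds 1 site in 2 genes. The pair of GAAA blocks was present in *B2m* only among the 8 genes (2.98% of all promoters) and GAANNGAAA in *H2-K1* and *H2-D1* (6.31%). TTCNNNGAA was present in *Psmb8* (7.02%). The window of *Psmb10* held none of these letters. A match is a string of letters, and binding was not measured.

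The libraries of 168FARN held 14359760 to 43427382 counted reads and those of 67NR 40951775 to 79251530. Values per library are CPM, a count scaled to a fixed library size, after TMM normalization over the 18 libraries. A called gene had a p, adjusted over all genes tested, under 0.1 and a log2 fold change beyond 0.6 in its direction. A ribosomal RNA gene, *Rn45s*, held 28.8% of the counts of 67NR *Kmt2d* KO replicate 3. Counts over the whole of *Kmt2c* or *Kmt2d* do not read an edit in the first exon, and no KO group lay wholly below its WT group. *Kmt2c* lay between 82.9 and 92.2 CPM in 67NR *Kmt2c* KO and between 55.7 and 64.7 CPM for WT cells, and *Kmt2d* between 91.0 and 141 CPM in 67NR *Kmt2d* KO and between 84.7 and 114 CPM for WT cells. In 168FARN, *Kmt2c* KO and WT libraries lay between 48.0 and 98.5 and between 45.5 and 117 CPM of *Kmt2c*, and *Kmt2d* KO and WT libraries between 139 and 299 and between 106 and 165 CPM of *Kmt2d*. The leukocyte markers *Ptprc*, *Cd3e* and *Adgre1* did not exceed 0.151 CPM in any library, and 2 of the 10 leukocyte markers at most reached 1 CPM in a group. *Epcam*, *Krt18*, *Krt19* and *Cdh1* were at or near 0 in 168FARN, where *Vim* was at 5834 CPM or above, so of 5 epithelial markers *Krt8* alone was present there.

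Replicate 3 of 168FARN stood apart for these genes. In every genotype, 9 of the 10 genes were more than 2-fold below both other replicates in replicate 3. The same held for 7.98% of 11080 genes with a mean of at least 1 CPM in this line. In 67NR it held for 0 of the 10 genes and for 1.44% of 11788. *Psmb10* was the exception in 168FARN, with ratios of replicates 1 and 2 to replicate 3 of 0.892 to 0.917 in the 3 genotypes. The largest falls were 27.9-fold, for *Psmb9* in *Kmt2d* KO cells, and 16.4-fold, for *H2-D1* in *Kmt2c* KO cells, and in WT cells the range over the 9 genes was 3.04-fold to 8.86-fold. Deviations from the group mean in 168FARN correlated with those of the other members at a median r of 0.983 to 0.993 for the 9 genes and of -0.75 for *Psmb10*, over 9 libraries. *Cd68*, a macrophage marker that other cells express too, moved the same way, from 72.1 CPM or above in replicates 1 and 2 to 5.37 CPM or below in replicates 3, and carried most of the summed level of the 10 leukocyte markers, 3.80 to 94.1 CPM. These values describe mainly the 3 libraries numbered 3. The source of this difference was not tested, and results in 168FARN are given both with and without those libraries.

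**Figure D1:**
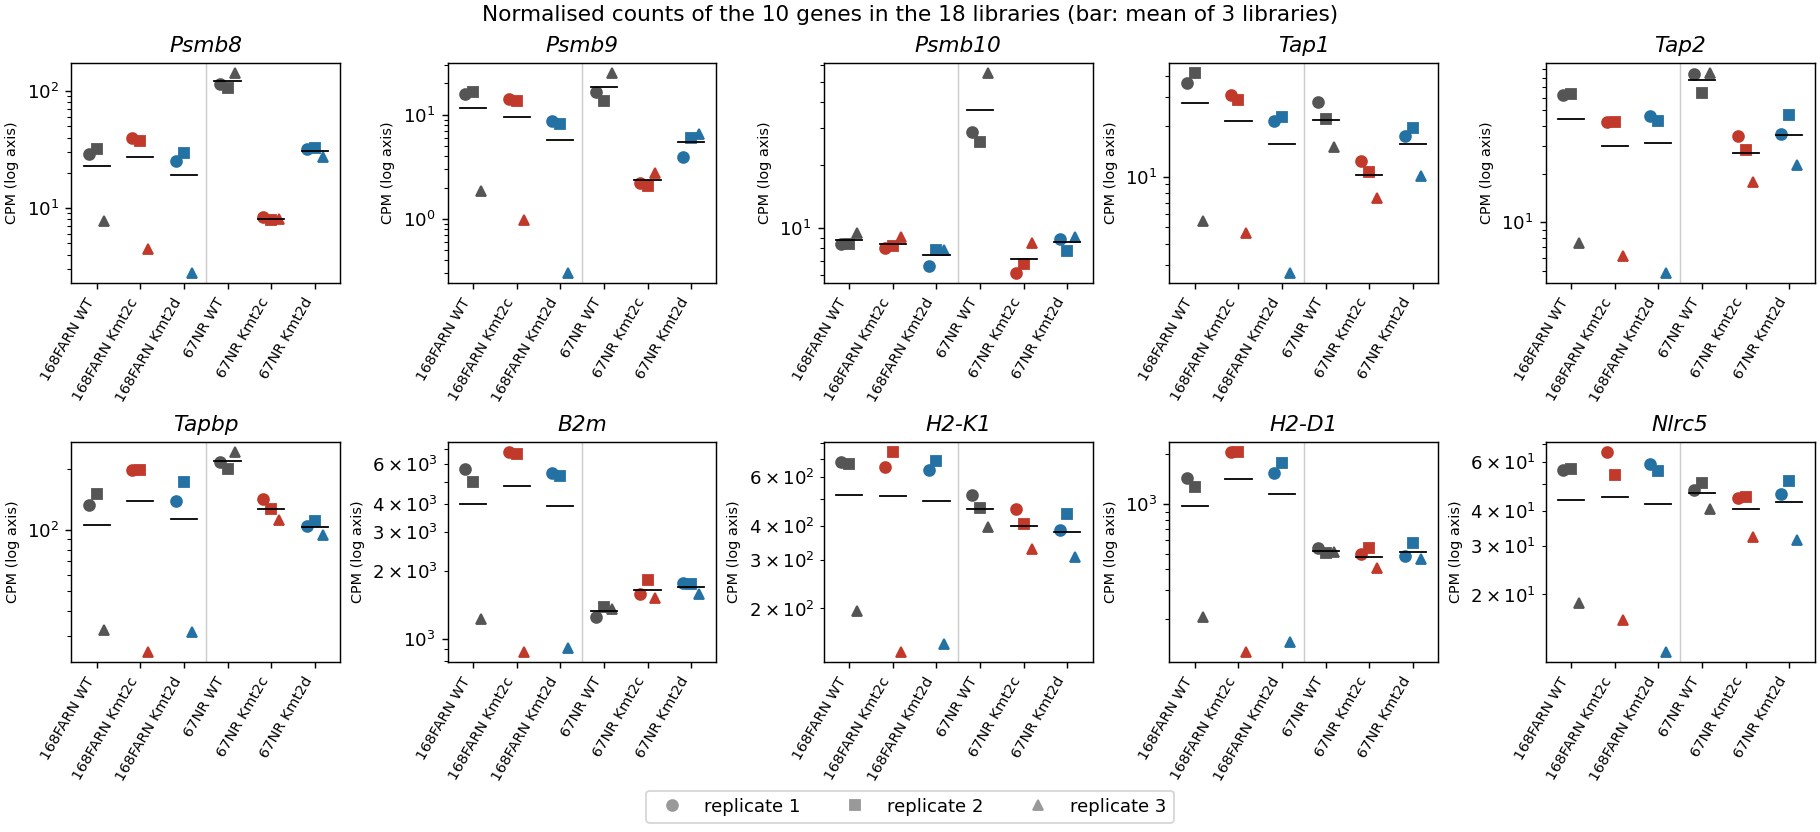
CPM (log axis) of the 10 genes in the 18 libraries by line and genotype, with symbols for the replicate number and a bar at the mean of 3 libraries. In 67NR *Psmb8* was at 106 to 142 CPM for WT, 7.95 to 8.38 CPM for *Kmt2c* KO and 27.5 to 32.9 CPM for *Kmt2d* KO cells, and in 168FARN replicate 3 lay far below the others for each gene but *Psmb10*.

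Levels were compared between genes as CPM per kb of exon, over the union of annotated exons. That union exceeds the longest transcript of some genes, with 3660 against 1351 bases for *Psmb9* and 5476 against 2953 for *Tap1*. For *B2m* and *Psmb10* the lengths are equal, so order and ratios between genes depend on the length used. In 67NR WT cells, *B2m* was the highest at 1555 ± 83.5 (SD, n = 3). *H2-D1* followed at 200.5 ± 8.30, *H2-K1* at 176 ± 23.5, *Tapbp* at 66.9 ± 6.52 and *Psmb8* at 44.2 ± 6.96 CPM per kb. Below them came *Psmb10* at 28.8 ± 12.7, *Tap2* at 20.6 ± 3.12, *Nlrc5* at 6.34 ± 0.696, *Psmb9* at 5.04 ± 1.64 and *Tap1* at 3.95 ± 1.18 CPM per kb. The libraries of neighbours in this order overlapped between *H2-D1* and *H2-K1*, between *Psmb8* and *Psmb10*, between *Psmb10* and *Tap2*, between *Nlrc5* and *Psmb9* and between *Psmb9* and *Tap1*. *B2m*, *H2-D1*, *H2-K1* and *Tapbp* kept ranks 1 to 4 in all 6 groups. *Psmb8* held rank 5 in 67NR WT and *Kmt2d* KO cells and rank 8, at 2.98 ± 0.0797 CPM per kb, in 67NR *Kmt2c* KO cells.

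The inducible catalytic subunits were lower in both KO genotypes of 67NR. *Psmb8*, the counterpart of *Psmb5*, was at 114, 106 and 142 CPM in 67NR WT replicates 1 to 3. It was at 8.38, 7.95 and 8.10 CPM for *Kmt2c* KO and at 31.8, 32.9 and 27.5 CPM for *Kmt2d* KO libraries. The 3 groups did not overlap, and *Kmt2c* KO cells were the lowest. How often the libraries of other genes separate in this way was not counted, here or for the other members. The log2 fold change against WT was -3.81 ± 0.17 (SE, edgeR) after loss of *Kmt2c* and -1.90 ± 0.16 after loss of *Kmt2d*, or 0.0713 and 0.268 of the WT level. Between the KO genotypes the log2 fold change was -1.91 ± 0.16, a description, since it uses the *Kmt2c* KO libraries that chose *Psmb8*. *Psmb8* gets no test in 67NR, since its level there chose the genes.

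*Psmb9*, the counterpart of *Psmb6*, was at 16.6, 13.6 and 25.2 CPM in 67NR WT, at 2.23, 2.08 and 2.75 CPM for *Kmt2c* KO and at 3.93, 5.96 and 6.53 CPM for *Kmt2d* KO libraries. The order of the groups was that of *Psmb8*, again without overlap. Loss of *Kmt2c* gave a log2 fold change of -2.89 ± 0.31, without a test, and *Psmb9* fell in *Kmt2d* KO cells by 1.68 ± 0.29 on the log2 scale (edgeR's quasi-likelihood test, Benjamini-Hochberg adjusted p = 0.0034). *Psmb10*, the counterpart of *Psmb7*, was at 28.9, 25.7 and 55.0 CPM for WT, at 6.11, 6.75 and 8.50 CPM for *Kmt2c* KO and at 8.91, 7.80 and 9.11 CPM for *Kmt2d* KO libraries. Here the KO groups overlapped each other and both lay under every WT library. The log2 fold changes were -2.28 ± 0.30 in *Kmt2c* KO cells, without a test, and -2.01 ± 0.30 in *Kmt2d* KO cells (edgeR, adjusted p = 0.0014).

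Of the transporter genes, *Tap2* fell in 67NR *Kmt2d* KO cells and *Tap1* did not pass the test. *Tap2* was at 83.7, 64.2 and 85.3 CPM for WT, at 34.7, 28.2 and 17.8 CPM for *Kmt2c* KO and at 35.4, 47.1 and 22.9 CPM for *Kmt2d* KO libraries. All KO libraries were below all WT libraries, and the KO groups overlapped. The log2 fold changes were -1.45 ± 0.32 in *Kmt2c* KO cells, without a test, and -1.07 ± 0.31 in *Kmt2d* KO cells (edgeR, adjusted p = 0.038). *Tap1* was at 27.8, 22.1 and 15.0 CPM for WT, at 12.4, 10.7 and 7.46 CPM for *Kmt2c* KO and at 17.4, 19.5 and 10.1 CPM for *Kmt2d* KO libraries. The *Kmt2d* KO libraries overlapped the WT libraries, with a log2 fold change of -0.39 ± 0.32 (edgeR, adjusted p = 0.45), and the *Kmt2c* KO libraries did not, with -1.0 ± 0.33 and no test. *Tapbp*, which encodes tapasin, was at 217, 201 and 244 CPM for WT, at 142, 128 and 112 CPM for *Kmt2c* KO and at 105, 111 and 94.5 CPM for *Kmt2d* KO libraries. It fell in *Kmt2d* KO cells by 1.01 ± 0.15 on the log2 scale (edgeR, adjusted p = 0.0016). In *Kmt2c* KO cells its log2 fold change was -0.71 ± 0.15, or -0.55 without the replicates numbered 3, and *Tapbp* was the member whose *Kmt2c* KO libraries all lay above the *Kmt2d* KO libraries.

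The class I chains themselves were not lower by these thresholds. *B2m* was at 1256, 1392 and 1364 CPM in 67NR WT, at 1579, 1831 and 1526 CPM for *Kmt2c* KO and at 1771, 1754 and 1583 CPM for *Kmt2d* KO libraries. Every KO library was above every WT library. The log2 fold change of 0.43 ± 0.15 with loss of *Kmt2d* (edgeR, adjusted p = 0.074) was under the fold threshold. *H2-K1* was at 517, 466 and 395 CPM for WT, at 459, 405 and 329 CPM for *Kmt2c* KO and at 385, 442 and 308 CPM for *Kmt2d* KO libraries. *H2-D1* was at 544, 504 and 509 CPM for WT, at 495, 538 and 406 CPM for *Kmt2c* KO and at 486, 581 and 465 CPM for *Kmt2d* KO libraries. *Nlrc5* was at 47.8, 50.5 and 40.7 CPM for WT, at 44.5, 45.1 and 32.2 CPM for *Kmt2c* KO and at 46.1, 51.5 and 31.4 CPM for *Kmt2d* KO libraries. These 3 genes overlapped between all groups of 67NR. In *Kmt2d* KO cells their log2 fold changes were -0.20 ± 0.20, 0.05 ± 0.16 and -0.03 ± 0.22 (edgeR, adjusted p = 0.53, 0.86 and 0.95), and in *Kmt2c* KO cells -0.12 ± 0.20, -0.03 ± 0.16 and -0.10 ± 0.22, with no test. The mm9 reference carries the H2-b alleles of C57BL/6, while the study injected these cells into BALB/c mice, which carry H2-d. Reads of *H2-K1* and *H2-D1* may therefore be lost or placed on related genes. Of 2003 windows of 100 bases in the longest *H2-D1* transcript, 93 (4.64%) also occurred in transcripts of other genes, against 0 of 1506 for *H2-K1* and 0 for *B2m*, *Psmb8*, *Psmb9*, *Psmb10*, *Tap1*, *Tap2* and *Tapbp*. Those windows are of the reference alleles and cannot show where reads of H2-d alleles were placed or lost.

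Counted over the genes, 4 of the 9 members other than *Psmb8* fell in 67NR *Kmt2d* KO cells (*Psmb9*, *Psmb10*, *Tap2* and *Tapbp*) and 0 rose. Of all 13665 genes tested, 11.6% were called lower and 13.9% higher, and the median log2 fold change was -0.39 over the 9 members against -0.02 over all genes. These 4 calls held in every fit that left out 1 library, under DESeq2 and without the replicates numbered 3. In *Kmt2c* KO cells, the comparison that chose the genes, the estimates of *Psmb8*, *Psmb9*, *Psmb10*, *Tap1*, *Tap2* and *Tapbp*, 6 of the 10, lay below -0.6, as did those of 22.1% of all genes. With the p threshold as well, 17.4% of all genes were called lower and 35.3% in either direction there, and nothing is read from this count. Both contrasts use the same WT libraries. Of 5 epithelial markers, 4 fell and 0 rose after loss of *Kmt2d*, and their summed level lay between 2096 and 3403 CPM for WT, between 432 and 758 CPM for *Kmt2c* KO and between 732 and 1525 CPM for *Kmt2d* KO libraries. Of 5 mesenchymal markers, *Vim* and *Cdh2* rose after loss of *Kmt2d* (2.19 ± 0.62 and 3.84 ± 0.37 on the log2 scale, edgeR, adjusted p = 0.034 and 0.00013), *Fn1* fell (-1.56 ± 0.43, edgeR, adjusted p = 0.031), and *Col1a1* and *Col1a2* were not called. Their summed level lay between 3184 and 6070 CPM for WT, between 3922 and 5217 CPM for *Kmt2c* KO and between 3673 and 5328 CPM for *Kmt2d* KO libraries, so the groups overlapped. Of 10 leukocyte markers 3 could be tested in *Kmt2d* KO cells. *Lyz2* rose from at most 0.544 CPM to between 2.16 and 3.26 CPM (edgeR, adjusted p = 0.011), and *Csf1r* fell from between 0.165 and 3.67 CPM to at most 0.10 CPM (edgeR, adjusted p = 0.052). *Cd68* was at 22.8, 22 and 36.8 CPM for WT, at 68.5, 62.3 and 18.7 CPM for *Kmt2c* KO and at 69.3, 79.0 and 25.0 CPM for *Kmt2d* KO libraries, which overlapped WT through replicates 3 (1.17 ± 0.54 with loss of *Kmt2d*, edgeR, adjusted p = 0.16). The summed level of the 10 leukocyte markers was 22.8 to 40.7 CPM for WT, 23.5 to 70.3 CPM for *Kmt2c* KO and 28.9 to 81.5 CPM for *Kmt2d* KO libraries. The part of these markers in the result was not tested. Fewer cells that express a gene and less RNA per cell cannot be told apart in these bulk libraries.

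**Figure D2:**
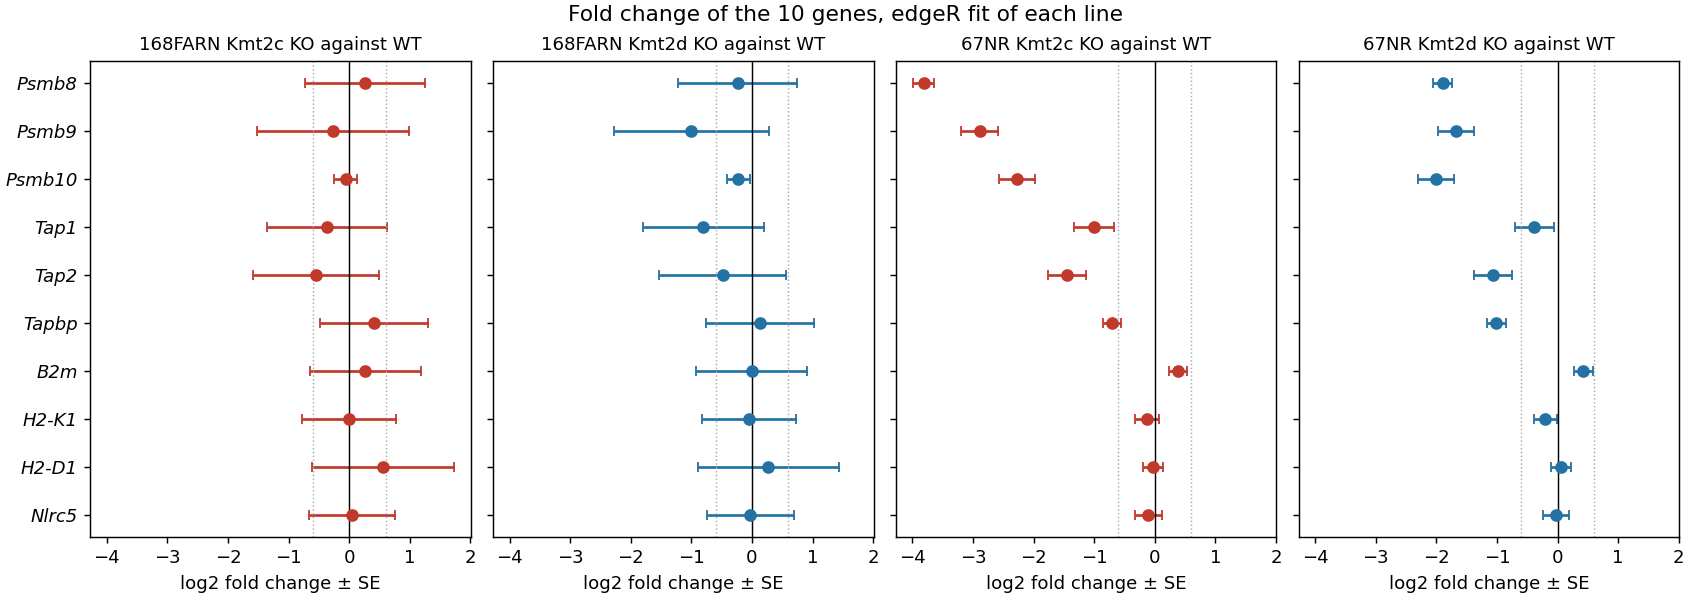
log2 fold change with its standard error (edgeR) of the 10 genes in each KO genotype against WT of the same line, with dotted lines at 0.6 in either direction. In 67NR the estimates of *Psmb8*, *Psmb9*, *Psmb10*, *Tap2* and *Tapbp* lay beyond -0.6 in both KO genotypes, and in 168FARN the standard errors of every gene but *Psmb10* were between 0.71 and 1.28.

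In 168FARN, 0 of the 10 genes were called in either KO genotype against WT, or between the KO genotypes, by edgeR or by DESeq2. With edgeR, 0 of them had an unadjusted p under 0.05 in any of the 3 comparisons. Of the 12253 genes tested, 0.359% were called in *Kmt2c* KO cells, 0.286% in *Kmt2d* KO cells and 0.253% between the KO genotypes (0.131% higher and 0.122% lower). *Psmb8* was at 29.1, 31.8 and 7.83 CPM for WT, at 39.8, 37.7 and 4.51 CPM for *Kmt2c* KO and at 25.2, 29.5 and 2.79 CPM for *Kmt2d* KO libraries. *Psmb9* was at 16.0, 16.7 and 1.85 CPM for WT, at 14, 13.6 and 0.98 CPM for *Kmt2c* KO and at 8.64, 8.16 and 0.30 CPM for *Kmt2d* KO libraries. The lowest of these rests on 8 reads. Within replicates 1 and 2, and within replicates 3, *Psmb9* was in the order WT, *Kmt2c* KO, *Kmt2d* KO. *Tap1*, at 36.0, 41.4 and 5.49 CPM for WT, 30.7, 28.7 and 4.65 CPM for *Kmt2c* KO and 21.5, 22.7 and 2.68 CPM for *Kmt2d* KO libraries, was in the same order.

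Same-numbered libraries deviated together, with those numbered 3 apart from those numbered 1 and 2, so a fit with the replicate number as a block bears on these values. With the block, *Psmb9* fell in 168FARN *Kmt2d* KO cells by 1.20 ± 0.23 on the log2 scale (edgeR, adjusted p = 0.0083) and *Tap1* by 0.84 ± 0.13 (edgeR, adjusted p = 0.0021). Without the block their log2 fold changes were -0.998 ± 1.28 and -0.80 ± 1.00. *Psmb9* was also higher after loss of *Kmt2c* than of *Kmt2d* in 168FARN with the block, by 0.79 ± 0.23 (edgeR, adjusted p = 0.061). Over all 12253 genes, the block fit called 335 higher and 388 lower in *Kmt2d* KO cells, and 354 and 299 between the KO genotypes. Without the replicates numbered 3, the same 3 values were -0.92, -0.77 and 0.70 (edgeR, adjusted p = 0.00075, 0.00065 and 0.0063), and *H2-D1* was called higher in *Kmt2c* KO cells, at 0.63 (adjusted p = 0.00055). Without those libraries, 6.51% of all genes were called lower and 7.98% higher in *Kmt2c* KO cells, 5.62% and 5.34% in *Kmt2d* KO cells, and 4.14% and 5.15% between the KO genotypes. With the block the value of *H2-D1* was 0.17 (edgeR, adjusted p = 0.69). *Psmb10*, the member that did not share the fall of replicate 3, was at 8.45, 8.43 and 9.46 CPM for WT, at 8.01, 8.20 and 9.05 CPM for *Kmt2c* KO and at 6.58, 7.87 and 7.88 CPM for *Kmt2d* KO libraries. The *Kmt2d* KO libraries all lay under the others, by less than the test could call (log2 fold change -0.22 ± 0.19, edgeR, adjusted p = 1).

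The remaining genes of 168FARN varied more between replicates than between genotypes. *B2m* lay between 1220 and 5732 CPM for WT, between 874 and 6792 CPM for *Kmt2c* KO and between 908 and 5457 CPM for *Kmt2d* KO cells. *H2-D1* was at 1430, 1272 and 206 CPM for WT, at 2070, 2061 and 126 CPM for *Kmt2c* KO and at 1539, 1771 and 144 CPM for *Kmt2d* KO libraries. *H2-K1* lay between 638 and 742 CPM in replicates 1 and 2 of the 3 genotypes and between 139 and 196 CPM in replicates 3. In the same way *Tapbp* lay between 134 and 198 and between 25.0 and 32.1 CPM, *Tap2* between 42.0 and 62.9 and between 4.82 and 7.43 CPM, and *Nlrc5* between 53.8 and 65.3 and between 12.4 and 18.6 CPM. *B2m* was at 4986 CPM or above in replicates 1 and 2 and at 1220 CPM or below in replicates 3.

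Between the parental cells, *Psmb10* was higher in 67NR WT than in 168FARN WT cells, by 2.06 ± 0.26 on the log2 scale (edgeR on 18 libraries, adjusted p = 1.2e-05), and *B2m* was lower, at -1.57 ± 0.70 (edgeR, adjusted p = 0.093). Of 13882 genes tested, 22.3% were called higher and 16.9% lower (39.2% in all), so 1 higher and 1 lower of 9 members is not above that background. The call of *B2m* was lost without any 1 of 5 of the 6 WT libraries, with adjusted p values of 0.15 to 0.25 (edgeR), and stood without 168FARN WT replicate 3. *Psmb8* differed by 2.40 ± 0.76, a value without a test. *Tapbp* (1.06 ± 0.67), *Tap2* (0.81 ± 0.80), *Psmb9* (0.68 ± 0.94), *Nlrc5* (0.08 ± 0.54), *H2-K1* (-0.17 ± 0.58), *Tap1* (-0.35 ± 0.76) and *H2-D1* (-0.90 ± 0.86) were not called. With the replicate number within each line as a block, *Psmb9* (1.21), *Tap2* (1.36) and *Tapbp* (1.35) were called higher too (edgeR, adjusted p = 0.00014, 2.3e-05 and 1.0e-06), from a fit whose error leaves out the spread between replicate numbers. Of the 13882 genes, that fit called 3749 higher and 2981 lower. Without the replicates numbered 3, *Psmb9* stood at -0.14, *H2-D1* was called lower at -1.40 and *Tap1* at -0.66 (edgeR, adjusted p = 2.7e-09 and 0.00026). Over all genes, 25.6% were called lower and 28.6% higher without those libraries. The lines were deposited as separate tables, so line and table cannot be told apart.

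The KO effect itself differed between the lines for *Psmb10*. Its log2 fold change in *Kmt2d* KO cells was lower in 67NR than in 168FARN by 1.84 ± 0.36 (edgeR's test of the interaction, adjusted p = 0.0038), beside 3.92% of all genes called lower and 6.68% higher in this test. For *Kmt2c* KO cells the same difference was -2.30 ± 0.36, without a test, beside 7.55% of genes lower and 8.49% higher. *Psmb8* differed between the lines by -1.72 ± 1.03 with loss of *Kmt2d* and -4.15 ± 1.06 with loss of *Kmt2c*, both without a test. The other 8 genes had differences of -1.20 to 0.38 for *Kmt2d* KO cells and were not called. All 8 shared the fall of replicate 3 in 168FARN, where their standard errors were wide. The missing calls therefore do not show that the lines were alike. With the block, *Tapbp* (-1.16) and *Tap2* (-0.68) were called as well (edgeR, adjusted p = 0.00082 and 0.092). Without the replicates numbered 3, *Tapbp* (-1.06) and *Psmb9* (-0.63) were (edgeR, adjusted p = 4.8e-05 and 0.062). Calls over all genes were more common in both fits than in the main fit, which called 544 lower and 927 higher. The block fit called 1801 lower and 2138 higher, and the fit without those libraries 2023 lower and 2516 higher.

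The mRNA of each inducible catalytic subunit was set against that of its constitutive counterpart as a ratio within a library, each per kb of exon. Protein was not measured, so the ratio does not show which subunits were built into the proteasome. *Psmb8* over *Psmb5* was 2.33, 2.55 and 1.90 in 67NR WT, 0.256, 0.220 and 0.157 for *Kmt2c* KO and 1.10, 1.10 and 0.488 for *Kmt2d* KO libraries. So WT cells held more *Psmb8* than *Psmb5* mRNA per length, and *Kmt2c* KO cells less. *Psmb9* over *Psmb6* was 0.0714 ± 0.0033 (SD, n = 3) in WT, 0.00935 ± 0.00085 with *Kmt2c* lost and 0.0229 ± 0.0053 with *Kmt2d* lost. *Psmb10* over *Psmb7* was 0.219 ± 0.017 in WT, 0.0464 ± 0.0018 with *Kmt2c* lost and 0.0574 ± 0.0116 with *Kmt2d* lost. In all 3 pairs every KO library of 67NR lay under every WT library. How often ratios of other genes separate in this way was not counted, and the level of *Psmb8* in *Kmt2c* KO cells chose the genes. The ratio also narrowed the spread of *Psmb10* in WT cells, where replicate 3 was high in CPM and *Psmb7* was high with it, at 220 CPM against 130 and 119 CPM. In 168FARN the ratio of *Psmb10* to *Psmb7* lay between 0.0394 and 0.0667 in all 9 libraries, close to the 0.0445 to 0.0668 of the 67NR KO libraries. The ratio of *Psmb8* to *Psmb5* in 168FARN was 0.559 to 0.768 in replicates 1 and 2 and 0.0427 to 0.0990 in replicates 3.

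**Figure D3:**
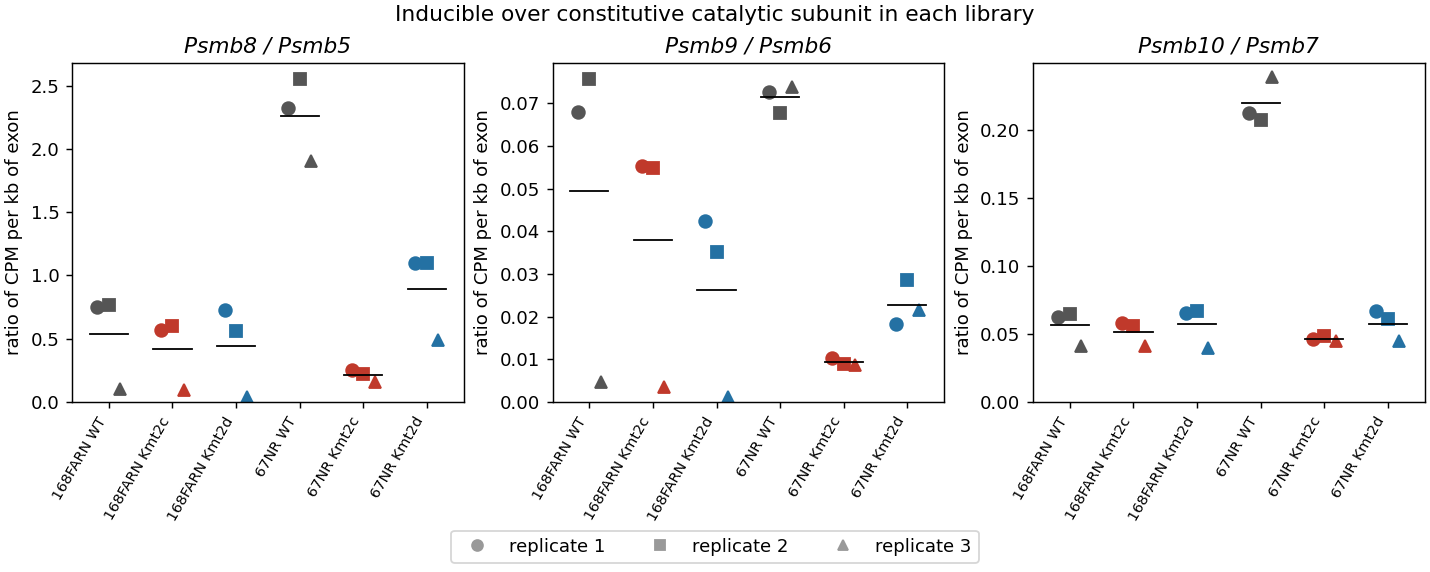
Ratio of each inducible catalytic subunit to its constitutive counterpart (CPM per kb of exon) in the 18 libraries, with symbols for the replicate number and a bar at the mean of 3 libraries. In 67NR all KO libraries lie below all WT libraries in the 3 panels, and in 168FARN replicate 3 of each genotype is the lowest in each panel.

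The constitutive parts of the proteasome did not pass the test in 67NR *Kmt2d* KO cells. None of *Psmb5* (-0.45 ± 0.33), *Psmb6* (-0.01 ± 0.25) and *Psmb7* (0.0016 ± 0.28) was called, with adjusted p values of 0.38 to 1.00 (edgeR), and 0 of 11 other subunits of the 20S core were, with a median of -0.09. *Psmb5* was called without *Kmt2d* KO replicate 3, at -0.80 (edgeR, adjusted p = 0.099). Of 9 genes for activators and assembly, 2 fell and 0 rose, beside 11.6% of all genes called lower and 13.9% higher. They were *Psme1*, at 167, 151 and 222 CPM for WT and 69.8, 66.2 and 89.0 CPM for *Kmt2d* KO libraries (-1.19 ± 0.19, edgeR, adjusted p = 0.0021), and *Psme2*, at -0.65 ± 0.18 (edgeR, adjusted p = 0.029). Both encode subunits of the PA28 cap, which opens the core for peptides and is induced by interferon. *Psme2* missed the fold threshold without WT replicate 3 (-0.48) and missed the p threshold without *Kmt2d* KO replicate 1 (adjusted p = 0.11) or replicate 2 (adjusted p = 0.10, edgeR), and stood at -0.58 without the replicates numbered 3.

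Of 8 genes for the trimming and loading of peptides, 1 rose and 1 fell, beside 13.9% of all genes called higher and 11.6% lower. *Tapbpl*, which encodes a peptide editor related to tapasin, was at 25.5, 20.3 and 15.2 CPM for WT and at 8.32, 10.8 and 4.57 CPM for *Kmt2d* KO libraries (-1.28 ± 0.33, edgeR, adjusted p = 0.020). *Lnpep*, an aminopeptidase of endosomes, rose by 0.92 ± 0.14 (edgeR, adjusted p = 0.0019). *Erap1*, which trims peptides in the endoplasmic reticulum, had a value of -0.58 ± 0.19 (edgeR, adjusted p = 0.060), just under the fold threshold. It was called without WT replicate 3 (-0.75), without *Kmt2d* KO replicate 1 (-0.69) and without the replicates numbered 3 (-0.66).

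Other class I heavy chains went in both directions. Of 17 listed, 12 could be tested, 3 rose and 2 fell, with a median of -0.04, beside 13.9% and 11.6% of all genes. *H2-T23*, which encodes Qa-1, a ligand of receptors on natural killer cells, was at 98.7, 79.7 and 69.8 CPM for WT and at 17, 21.2 and 16.3 CPM for *Kmt2d* KO libraries (-2.11 ± 0.21, edgeR, adjusted p = 0.00016). *H2-T24* fell by 2.43 ± 0.44 on the log2 scale from at most 5.26 CPM (edgeR, adjusted p = 0.0039). *H2-M2*, at 0.0294 to 0.165 CPM for WT and 0.803 to 1.73 CPM for *Kmt2d* KO cells, and *H2-T3*, at 0 to 0.0459 and 0.239 to 0.502 CPM, passed as higher at levels near the limit of detection (edgeR, adjusted p = 0.0076 and 0.0094).

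Among 21 genes of interferon signalling and class I transcription, 2 rose and 5 fell in 67NR *Kmt2d* KO cells, with a median of -0.22, beside 13.9% of all genes called higher, 11.6% lower and a median of -0.02. *Irf1*, a transcription factor that acts on *Psmb9*, *Tap1* and class I genes, was at 156, 137 and 177 CPM for WT and at 80.1, 82.4 and 65.6 CPM for *Kmt2d* KO libraries (-0.96 ± 0.16, edgeR, adjusted p = 0.0027). *Ifnar2*, a chain of the receptor for type I interferon, was at 112, 120 and 88.2 CPM for WT and at 48.8, 48.8 and 36.8 CPM for *Kmt2d* KO libraries (-1.17 ± 0.18, edgeR, adjusted p = 0.0019). *Socs1*, an inhibitor of JAK kinases, rose from 1.13, 0.867 and 3.45 CPM to 7.97, 12.6 and 18.1 CPM (2.92 ± 0.53, edgeR, adjusted p = 0.0043). *Jak1* rose by 0.73 ± 0.15 (edgeR, adjusted p = 0.0081). *Rfx5* (0.27 ± 0.30), which encodes a factor that binds the X box, was not called (edgeR, adjusted p = 0.58), and *Ciita*, the activator of class II genes, stayed at or near 0 in every library. In the class II list, 5 of 9 genes could be tested, and 1 rose and 1 fell. Of the 5 estimates 4 were negative, with a median of -1.02. Without the replicates numbered 3, 3 of the 5 were called lower and 1 higher, beside 16.8% and 19.0% of all genes. *Cd74*, not called and named after its values were seen, had means of 86.7 CPM for WT and 43.6 CPM for *Kmt2d* KO replicates 1 and 2. Its replicates 3 were at 34.7 and 9.89 CPM. *H2-DMb1* rose from at most 0.295 CPM to between 1.31 and 1.66 CPM and *H2-Ab1* fell from at most 1.15 to at most 0.251 CPM (edgeR, adjusted p = 0.0011 and 0.045), and the call of *H2-Ab1* was lost without WT replicate 1 or *Kmt2d* KO replicate 1 or 2.

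The same 7 lists held 0 called genes in either KO genotype of 168FARN. Without the replicates numbered 3, 10 of 65 genes of these lists were called higher and 1 lower in 168FARN *Kmt2c* KO cells, beside 7.98% and 6.51% of all genes, and 5 higher and 5 lower in *Kmt2d* KO cells, beside 5.34% and 5.62%. *Socs1* was higher in both (1.02 and 0.78, edgeR, adjusted p = 0.00030 and 0.0035) and *Psmb5* in *Kmt2c* KO cells (0.74, edgeR, adjusted p = 0.0049). Both were named here after their values were seen. In 67NR *Kmt2c* KO cells, without a test, *Psme1* (-1.56 ± 0.19), *Psme2* (-0.88 ± 0.18), *Erap1* (-0.86 ± 0.20) and *Irf1* (-1.02 ± 0.16) lay beyond the fold threshold, and *Psmb5* (-0.38 ± 0.33), *Psmb6* (0.07 ± 0.25), *Psmb7* (-0.0036 ± 0.28) and *Rfx5* (0.13 ± 0.30) did not. Between the parental cells, of the called genes with the smallest p in each list, *Psme1* (1.84), *Psmg1* (1.16), *Erap1* (1.75), *Tapbpl* (2.25), *Jak2* (1.88) and *Ifngr1* (1.41) were higher in 67NR and *Lnpep* (-0.95), *Socs1* (-2.34), *Jak1* (-0.76) and *H2-M3* (-0.91) were lower on the log2 scale (edgeR, adjusted p of at most 0.025 for each). *H2-T24*, *Cd1d1*, *H2-Oa* and *H2-Ab1* were also called higher and *H2-T3* and *H2-DMb1* lower, from levels near 0 in one of the lines.

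**Figure D4:**
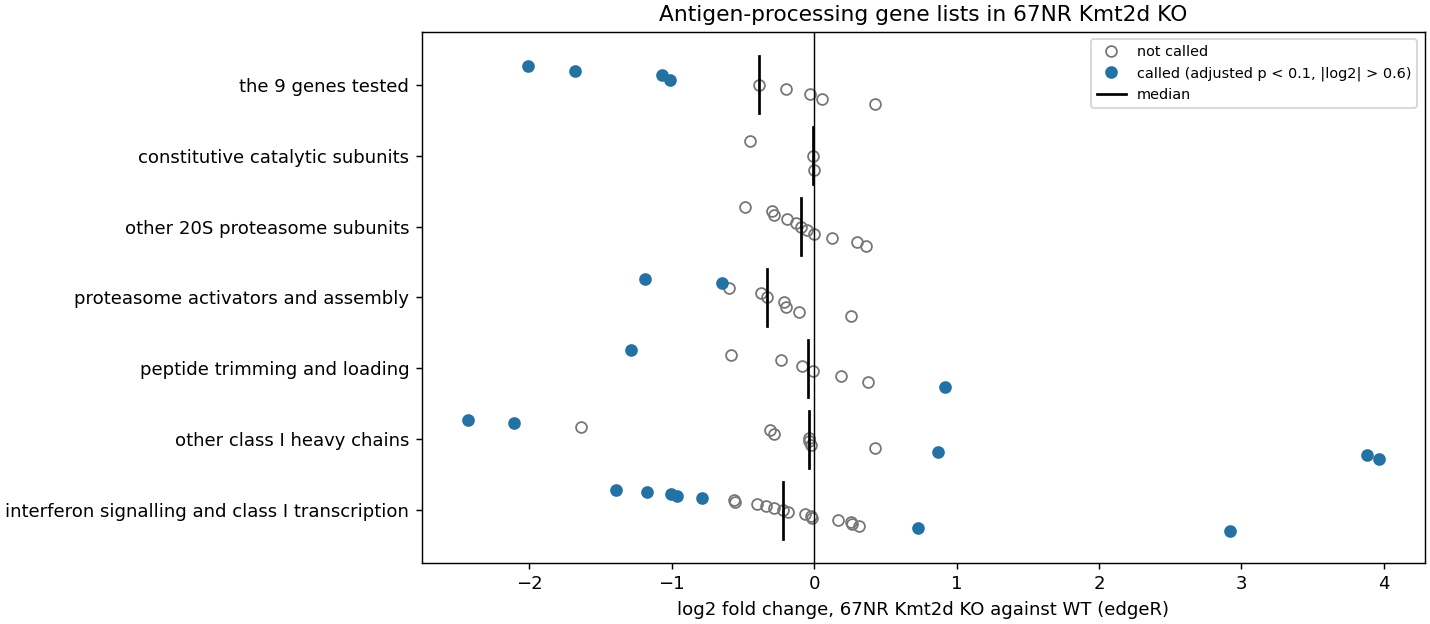
log2 fold change in 67NR *Kmt2d* KO against WT (edgeR) for the 9 members tested and 6 lists of other genes of antigen processing, with called genes filled and a bar at the median. The 4 filled members lie at -1.01 or below, and the 3 constitutive catalytic subunits and 11 other core subunits hold no filled point.

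The 7 members on chromosome 17 span 1352 kb from *Tapbp* to *H2-D1*. Of the 63 other genes tested in that interval, 21 (33.3%) were called lower and 4 (6.35%) higher in 67NR *Kmt2d* KO cells, with a median log2 fold change of -0.59, beside 11.6%, 13.9% and -0.02 over all genes tested. When the replicates numbered 3 were left out, 28 of 65 were called lower and 5 higher in these cells, beside 16.8% and 19.0% of all genes. In 67NR *Kmt2c* KO cells the median of the 63 was -0.47, without a test. In 168FARN 0 of 54 were called in either genotype, and their medians were 0.06 after loss of *Kmt2c* and 0.18 after loss of *Kmt2d*. Over replicates 1 and 2 alone, 7 of 52 were called higher and 1 lower after loss of *Kmt2c*, with a median of 0.22, and 9 higher and 0 lower after loss of *Kmt2d*, with a median of 0.26, beside 7.98%, 6.51%, 5.34% and 5.62% of all genes in that order. In 67NR *Kmt2d* KO cells *H2-DMb2*, 54.4 kb before *Psmb8*, was called higher (4.76 ± 0.81) and *Cyp21a1*, 604 kb after it, lower (-9.87 ± 0.90). They were chosen after their values were seen, as the largest estimate in each direction. The median of the 63 genes was not tested, and genes of a region are not independent.

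**Figure D5:**
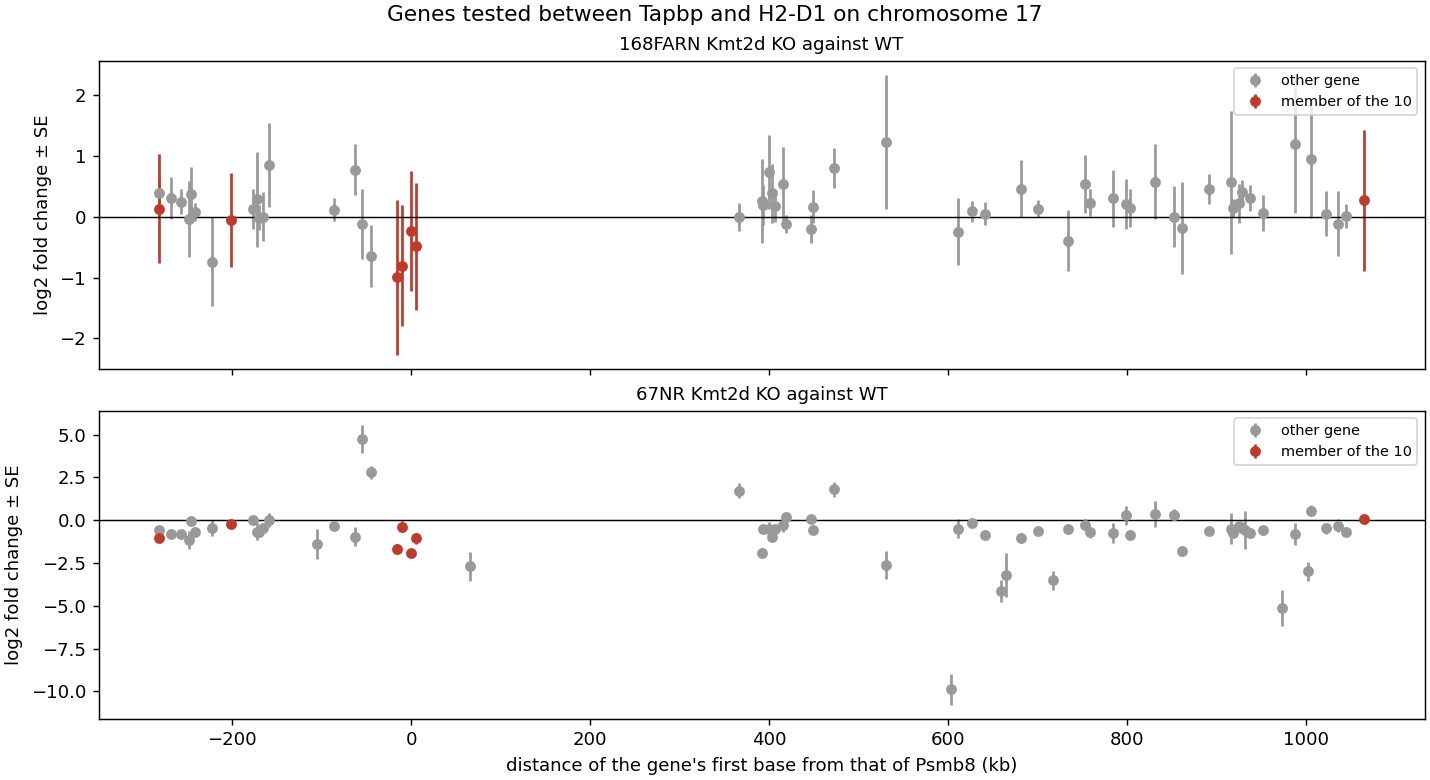
log2 fold change with its standard error (edgeR) in *Kmt2d* KO against WT for the genes tested between *Tapbp* and *H2-D1*, against the distance of their first base from that of *Psmb8* in kb, with the 7 studied genes of the interval in red. In 67NR most of the other genes lie below 0 (median -0.59), and in 168FARN they scatter around a median of 0.18.

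Genes that are no member and most like *Psmb8* over the 9 libraries of 67NR, by Pearson's r of log2(CPM + 1), were *Vangl2* (0.998), *Prss16* (0.996), *Stard10* (0.995), *Rpia* (0.995) and *Samsn1* (0.993). *Vangl2*, a planar cell polarity gene, stood at means of 20.7 CPM for WT, 1.82 CPM for *Kmt2c* KO and 6.34 CPM for *Kmt2d* KO cells. In 168FARN the same r was 0.20 for *Vangl2*, 0.48 for *Prss16*, -0.90 for *Stard10* and -0.89 for *Rpia*. Of the members, *Psmb9* (0.968), *Psmb10* (0.896) and *Tap2* (0.872) were the most like *Psmb8* in 67NR and *B2m* (-0.69) the least. In 168FARN 8 members had an r of 0.961 to 0.985 with *Psmb8* and *Psmb10* had -0.33. Over the 6 libraries numbered 1 or 2, the r of the members with *Psmb8* in 168FARN ran from -0.34 for *Tap2* to 0.861 for *Tapbp*, and that of *Vangl2* was -0.17, of *Prss16* 0.900, of *Stard10* 0.834 and of *Rpia* -0.72. These libraries share genotype in 67NR and replicate number in 168FARN as the main sources of spread, and the values are descriptions.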

How the data were processed

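RNA-seq was measured in 18 libraries of 168FARN and 67NR cells. Raw counts per gene symbol were deposited by the authors, who had built stranded poly-A libraries and mapped them against mm9 using STAR within VIPER. Versions, annotation and the strand setting are not given in the sources used here. All columns matched a sample by name. Symbols that a spreadsheet had turned into dates were left out where both lines were joined.

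Counts were fitted with edgeR 4.0.16 (R 4.3.3) after TMM normalization and filterByExpr, with genotype as the factor, on the 9 libraries of a line (12253 genes in 168FARN, 13665 in 67NR) or on 18 libraries in 6 groups (13882 genes). The quasi-likelihood test was two-sided, with Benjamini-Hochberg adjustment over all genes tested. Calls required a log2 fold change beyond 0.6 in either direction together with a p, after adjustment, under 0.1. Standard errors are the fold change divided by the root of F. DESeq2 1.42.0, the replicate block and fits without single libraries were alternatives, and the fits without the replicates numbered 3 were chosen after seeing the data. Fits were tested on simulated data. Between 14359760 and 79251530 counts per library limit low genes most.

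The members, lists, thresholds and named genes were chosen with earlier results of these data known. The genes named are the members, *Psmb5*, *Psmb6*, *Psmb7*, *Psme1*, *Psme2*, *Erap1*, *Irf1*, *Rfx5*, *Ciita*, another gene that is not reported here, the 2 higher and 2 lower called genes of smallest p in each list and tested comparison, and the 5 genes most like *Psmb8*. Exon lengths and positions are from GENCODE M1 (mm9), and promoters from RefSeq (GRCm38.p6). Replicate numbers were taken as pairing the samples in the block fit only, and the main fits left them out. Deviations of same-numbered libraries from their group means had correlations from 0.65 up to 0.90 for 168FARN and from 0.35 up to 0.72 for 67NR. Libraries numbered 1 and 2 correlated across these numbers too (0.62 to 0.73 and 0.28 to 0.52), and those numbered 3 with 1 or 2 at -0.82 to -0.71 and -0.60 to -0.42, so the values set number 3 apart and do not separate 1 from 2.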

Additional observations from a re-analysis of the deposited data

Results flagged for a closer look

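The effect of *Kmt2d* KO differed between the lines, by edgeR's test of the interaction, for *Psmb10* (-1.84 ± 0.36 on the log2 scale, adjusted p = 0.0038), which was lower than WT in 67NR and not called in 168FARN. The same difference was called for *Tapbpl* (-1.74, adjusted p = 0.056), *H2-T3* (5.48, adjusted p = 0.019), *Jak1* (0.82, adjusted p = 0.083), *Jak2* (-1.22, adjusted p = 0.038), *Socs1* (2.20, adjusted p = 0.040) and *H2-DMb1* (3.38, adjusted p = 0.0031) by edgeR. Over all genes, 3.92% were called lower and 6.68% higher in this test. Of 18 alternative fits, *Tapbpl* was called in 10 and *Jak1* in 11. *Jak2* and *Socs1* were called in 17 of them, and *H2-T3* and *H2-DMb1* in all 18. *H2-T3* did not exceed 1 CPM in any library. No other member was called in this test, and no member moved in opposite directions without overlap in the 2 lines. Groups of 3 libraries were not searched for single outlying values.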

How the results depend on the processing

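The 4 members called lower in 67NR *Kmt2d* KO cells kept their direction and call under every alternative tried, and *Psmb10* did so in the interaction and between the WT groups. With the replicate block, edgeR called 448 genes higher and 438 lower in 168FARN *Kmt2c* KO cells, 335 and 388 in *Kmt2d* KO cells and 354 and 299 between the KO genotypes, against 24 and 20, 18 and 17, and 16 and 15 without it. Of the members, the block called 2 lower in 168FARN *Kmt2d* KO cells, 1 higher between the KO genotypes of 168FARN, 4 higher between the WT groups and 3 lower in the interaction, where 2138 genes were higher and 1801 lower (927 and 544 without it). The pairing changed no other call of a member. Without the replicates numbered 3, the counts in 168FARN were 980 and 800, 656 and 690, and 633 and 508 genes, 3582 were lower between the WT groups, 2516 higher and 2023 lower in the interaction, and 1 member was called higher in *Kmt2c* KO cells, 2 lower in *Kmt2d* KO cells, 1 higher between the KO genotypes, 3 lower between the WT groups and 3 lower in the interaction. DESeq2 called 152 and 136, 118 and 130, and 133 and 102 genes in 168FARN. An adjusted p under 0.05 with no fold threshold gave 11 and 12, 10 and 9, and 10 higher genes there, 321 lower in the interaction and 0 members lower between the WT groups, as did no filter on low counts. With only the 6 libraries compared, 1 and 3, 0 and 0, and 0 and 2 genes were called. Leaving out 1 library at a time gave 0 to 33 genes higher in 168FARN *Kmt2c* KO against WT, 2 to 24 genes lower in 168FARN *Kmt2c* KO against WT, 0 to 10 genes higher in 168FARN *Kmt2d* KO against WT, 0 to 9 genes lower in 168FARN *Kmt2d* KO against WT, 0 to 21 genes higher in 168FARN *Kmt2c* KO against *Kmt2d* KO, 2 to 14 genes lower in 168FARN *Kmt2c* KO against *Kmt2d* KO, 0 to 1 members lower in 67NR WT against 168FARN WT, 251 to 579 genes lower in the interaction. These log2 fold changes, all uncalled, changed sign. With the replicate block, *Psmb8* was -0.011 in 168FARN *Kmt2c* KO against WT, *Nlrc5* was -0.024 in 168FARN *Kmt2c* KO against WT, *Tap2* was 0.027 in 168FARN *Kmt2c* KO against *Kmt2d* KO, *Psmb6* was 0.0042 in 67NR *Kmt2d* KO against WT, *Tap1* was 0.059 in 67NR WT against 168FARN WT, *H2-K1* was 0.020 in 67NR WT against 168FARN WT, *Nlrc5* was 0.040 in the interaction. Without the replicates numbered 3, *H2-K1* was 0.062 in 168FARN *Kmt2c* KO against WT, *B2m* was 0.045 in 168FARN *Kmt2d* KO against WT, *H2-K1* was 0.0060 in 168FARN *Kmt2d* KO against WT, *Nlrc5* was 0.061 in 168FARN *Kmt2d* KO against WT, *Nlrc5* was 0.068 in 67NR *Kmt2d* KO against WT, *Psmb6* was 0.051 in 67NR *Kmt2d* KO against WT, *Psmb9* was -0.14 in 67NR WT against 168FARN WT, *Nlrc5* was -0.23 in 67NR WT against 168FARN WT. With the size factors of DESeq2, *Psmb7* was -0.0010 in 67NR *Kmt2d* KO against WT. Without a filter, *Psmb7* was -0.0070 in 67NR *Kmt2d* KO against WT. With DESeq2, *Psmb7* was -0.0010 in 67NR *Kmt2d* KO against WT. With only the 6 libraries compared, *Psmb6* was 0.013 in 67NR *Kmt2d* KO against WT. Leaving out 1 library at a time gave these ranges. In 168FARN *Kmt2c* KO against WT, *Psmb9* lay between -0.76 and 0.28, *H2-K1* lay between -0.38 and 0.45, *Tap1* lay between -0.84 and 0.12, *Psmb8* lay between -0.14 and 0.77, *Psmb10* lay between -0.11 and 0.018, *Tapbp* lay between -0.0048 and 0.92, *B2m* lay between -0.15 and 0.77, *Nlrc5* lay between -0.33 and 0.45. In 168FARN *Kmt2d* KO against WT, *B2m* lay between -0.43 and 0.47, *H2-K1* lay between -0.43 and 0.39, *Nlrc5* lay between -0.38 and 0.42, *Psmb8* lay between -0.69 and 0.29, *Tapbp* lay between -0.29 and 0.59, *H2-D1* lay between -0.20 and 0.81, *Tap2* lay between -0.98 and 0.036. In 168FARN *Kmt2c* KO against *Kmt2d* KO, *Tapbp* lay between -0.17 and 0.78, *B2m* lay between -0.19 and 0.77, *H2-K1* lay between -0.39 and 0.49, *H2-D1* lay between -0.24 and 0.83, *Nlrc5* lay between -0.37 and 0.47, *Tap2* lay between -0.57 and 0.42, *Psmb8* lay between -0.021 and 1.00, *Tap1* lay between -0.067 and 0.91. In 67NR *Kmt2d* KO against WT, *Psmb7* lay between -0.22 and 0.33, *Nlrc5* lay between -0.18 and 0.18, *Psmb6* lay between -0.18 and 0.25, *H2-D1* lay between -0.051 and 0.14. In 67NR WT against 168FARN WT, *H2-K1* lay between -0.62 and 0.025, *Tap1* lay between -0.90 and 0.0097, *Nlrc5* lay between -0.35 and 0.26. In the interaction, *H2-K1* lay between -0.56 and 0.27, *H2-D1* lay between -0.72 and 0.29, *Nlrc5* lay between -0.42 and 0.39, *Tap1* lay between -0.068 and 0.93, *B2m* lay between -0.014 and 0.89. The cause was not tested. Of the members, *Psmb9* rests on the fewest reads, 8 in 168FARN *Kmt2d* KO replicate 3, a library of 27622049 counts. The shallowest library, 168FARN *Kmt2d* KO replicate 2 with 14359760 counts, held 114 reads of *Psmb9*.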
